A study of Mus musculus with 3 samples.

Results

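Amino acid transporters of the liver were followed in mice given a virus carrying Cre recombinase and mice given a control virus. The 8 transporter genes were chosen by name, with earlier results of these data known: Slc38a2, Slc38a3, Slc38a4, Slc7a2, Slc3a1, Slc3a2, Slc43a1 and Slc1a4. They are 8 of 18193 genes that at least 1 array probe set reads alone, and all 8 were among the 14733 genes bright enough to be fitted. Total liver RNA came from mice of 3 months on a mixed background, taken 1 week after 1 intraperitoneal injection of 400 microL of virus. One liver had received the Cre virus (MUP-iCre-AAV8, n = 1) and 2 the control virus (MUP-EGFP-AAV8, n = 2), each on its own 1-colour array. AAV8 is an adeno-associated virus that enters liver cells well, iCre cuts out DNA between loxP sites, and EGFP is a fluorescent protein; the labels do not spell out MUP. According to the series design, both viruses were given to mice with a floxed HNF4alpha gene, but the genotype given for the control samples is wild type and for the Cre sample HNF4alpha knockout. A difference in genotype therefore cannot be told apart from the difference in virus.

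Hepatocytes take up amino acids from portal blood through carriers of several solute carrier (Slc) families. Members of the SLC38 family move small neutral amino acids and glutamine with sodium. SLC7 members move cationic amino acids alone or, paired with an SLC3 heavy chain, exchange amino acids, cationic ones among them. HNF4alpha, the protein of Hnf4a, is a nuclear receptor that switches on many hepatocyte genes.

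Values are log2 expression, so that 1 unit is 2-fold, and differences are the Cre liver minus the mean of the control livers, with limma's moderated standard error (SE). A gene rose or fell where limma's Benjamini-Hochberg adjusted p over all fitted genes was under 0.05. The lone Cre liver was assumed to vary like the controls. Each of the 4 Hnf4a probe sets had its lowest value in the Cre liver, with differences from single controls between -1.20 and -0.42. The brightest was at 11.38 in the Cre liver, against 11.91 and 11.96 in the control livers (difference -0.55 ± 0.10 SE, limma adjusted p = 0.0461). Over 10 other settings the limma adjusted p of Hnf4a ran from 0.011 to 0.192. The highest came without probe sets able to read several transcripts, where 1427000_at stood for the gene (-0.67). Tested over 26018 probe sets, 1421983_s_at passed (-1.18 ± 0.14 SE, limma adjusted p = 0.0334), the only one of the 4 to do so. Where the Hnf4a probe sets lie relative to the deleted DNA was not analysed here, so they are a limited check of the deletion.

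In the Cre liver, 3 of the 8 transporter genes fell and 1 rose, while 4 did not pass. Slc3a1, Slc38a3 and Slc38a2 fell, and Slc1a4 rose. Of all fitted genes, 4.22% fell and 5.12% rose. The members thus split in direction, and their median difference was -0.11, against 0.05 over all fitted genes. By a rule of size with no test, 2 members were at least 1 log2 unit below both controls (3.23% of all genes) and 1 was at least 1 log2 unit above both (3.35% of all genes). In bulk liver, fewer cells of a type and less RNA per cell cannot be told apart.

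Promoter windows from RefSeq (GRCm38.p6), covering 250 bases before to 50 bases after a transcript start, were found for 6 of the 8 genes. Those of Slc3a1, which had the largest fall of the members, Slc1a4, the member that rose, and Slc38a2, which fell less, are shown 5′ to 3′ on the gene's strand. Capitals mark a match to CAAAGTCCA, the core letters bound by HNF4, or to TGATGNAAN, the amino acid response element bound by ATF4 with C/EBP partners, on either strand. Slc38a2 has no capitals because neither was found in its window. DNA outside the windows, such as introns further in, was not searched.
Slc3a1 (chr17:85028097-85028396, plus strand): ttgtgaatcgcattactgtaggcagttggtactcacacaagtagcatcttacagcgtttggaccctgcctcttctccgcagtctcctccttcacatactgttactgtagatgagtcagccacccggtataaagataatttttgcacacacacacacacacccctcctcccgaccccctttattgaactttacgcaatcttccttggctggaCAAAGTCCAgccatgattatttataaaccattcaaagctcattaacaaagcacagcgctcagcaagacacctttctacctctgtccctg
Slc1a4 (chr11:20332664-20332963, minus strand): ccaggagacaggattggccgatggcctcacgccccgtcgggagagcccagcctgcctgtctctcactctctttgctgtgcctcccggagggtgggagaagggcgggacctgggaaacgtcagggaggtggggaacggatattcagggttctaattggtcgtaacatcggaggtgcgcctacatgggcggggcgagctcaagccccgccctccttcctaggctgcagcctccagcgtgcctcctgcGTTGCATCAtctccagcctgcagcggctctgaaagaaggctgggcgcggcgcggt
Slc38a2 (chr15:96699679-96699978, minus strand): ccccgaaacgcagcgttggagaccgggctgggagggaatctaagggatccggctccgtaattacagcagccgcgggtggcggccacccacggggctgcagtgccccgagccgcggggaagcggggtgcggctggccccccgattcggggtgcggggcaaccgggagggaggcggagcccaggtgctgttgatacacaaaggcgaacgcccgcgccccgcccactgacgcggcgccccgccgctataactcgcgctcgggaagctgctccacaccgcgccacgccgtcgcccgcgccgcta

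The Slc3a1 window held the HNF4 letters 39 bases before the start. Of 32851 windows, 0.475% held CAAAGTCCA, and 1.98% held the looser CAAAGNCCA, which covers the first. The Slc1a4 window held the response element as GTTGCATCA, which reads TGATGCAAC on the opposite strand and begins 5 bases before the start. TGATGNAAN occurred in 3.95% of all windows. Among the 8 windows of the members, each of these motifs was found in 1. A match describes letters in the window and is not evidence of binding.

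**Figure D1:**
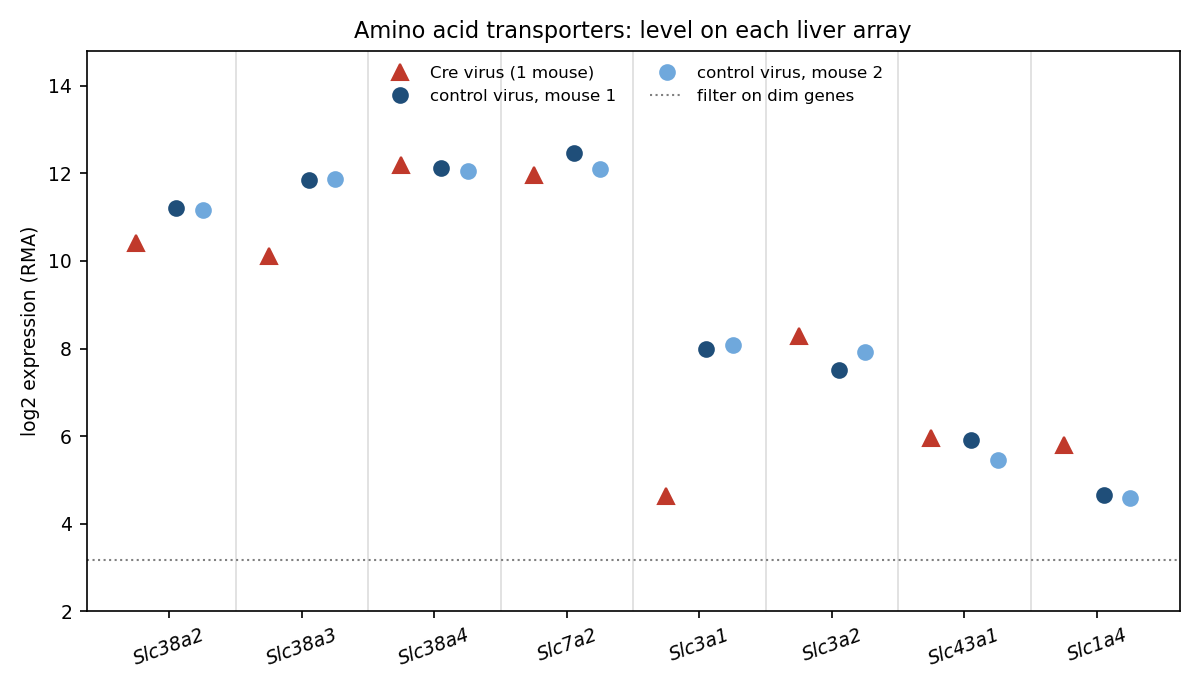
Log2 expression (vertical axis) of the probe set that stands for each of the 8 transporter genes in the Cre liver (triangle) and the control livers (circles), with the filter on dim genes at 3.17 (dotted). Slc3a1 lies at 4.63 in the Cre liver against 7.98 and 8.07 in the controls; levels are to be compared within a gene, not between genes.

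Of the sodium-coupled SLC38 carriers, Slc38a3 and Slc38a2 fell and Slc38a4 did not pass. Slc38a3 encodes SNAT3, a system N carrier of glutamine, histidine and asparagine. It was at 10.12 in the Cre liver, against 11.85 and 11.88 in the control livers. The Cre liver lay below both controls, by far more than the controls lay apart. Slc38a3 was 3.36-fold lower (difference -1.75 ± 0.10 SE, limma adjusted p = 0.00377), with a 95% interval of -2.02 to -1.48 and a control mean of 11.86 ± 0.02 (SD, n = 2). Its dimmer probe set, 1446013_at, was at 4.83 in the Cre liver against 6.0 and 6.43 in the controls (-1.38 ± 0.24 SE). It did not pass over 26018 probe sets, of which 2.78% passed as lower (limma adjusted p = 0.0664).

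Slc38a2 encodes SNAT2, a widely expressed system A carrier of small neutral amino acids that cells are known to raise when amino acids are scarce. It was at 10.42 in the Cre liver, against 11.20 and 11.16 in the control livers. The Cre liver was below both, and Slc38a2 was 1.69-fold lower (-0.76 ± 0.10 SE, limma adjusted p = 0.0274). Its 95% interval ran from -1.04 to -0.48, and its control mean was 11.18 ± 0.03 (SD, n = 2). Probe set 1429593_at gave a like size, 8.13 in the Cre liver against 9.13 and 8.72 (-0.80 ± 0.22 SE, limma adjusted p = 0.132 over all probe sets). The dimmest, 1429594_at, pointed the other way at 3.94 against 3.77 and 3.63, a level just above the filter. With all 3 averaged, the difference was -0.44 and did not pass (limma adjusted p = 0.146). Without the intensity trend the brightest probe set kept its difference of -0.76 but did not pass (limma adjusted p = 0.069).

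Slc38a4 encodes SNAT4, a system A carrier found mainly in liver, whose gene is imprinted in mice. It was at 12.18 in the Cre liver, against 12.12 and 12.06 in the control livers. The Cre value lay just above both, and the difference was 0.09 ± 0.10 SE (limma adjusted p = 0.568). The 95% interval of that difference ran from -0.17 to 0.35, so it did not reach the size of either fall in the family. The other Slc38a4 probe set was at 12.20 in the Cre liver against 11.73 and 11.97 (0.35 ± 0.14 SE). Slc38a4 and Slc38a2 lie on the same chromosome, 15.

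Slc7a2 encodes CAT-2, a carrier of arginine, lysine and ornithine whose liver form arises by alternative splicing. Its brightest probe set was at 11.96 in the Cre liver, against 12.46 and 12.11 in the control livers. The Cre liver was below both, but by only 0.14 below the lower control, and the controls themselves differed by 0.35. The difference of -0.32 ± 0.17 SE did not pass (limma adjusted p = 0.312; 95% interval -0.80 to 0.16).

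On all 4 Slc7a2 probe sets the Cre liver lay below both controls, by different amounts. Probe set 1450703_at was at 4.71 in the Cre liver against 6.19 and 5.88 (-1.32 ± 0.21 SE, limma adjusted p = 0.0549 over all probe sets). The differences of 1422648_at and 1426008_a_at were -0.62 and -0.40. The mean of the 4 probe sets was at -0.66 and passed (limma adjusted p = 0.0443). Which Slc7a2 transcripts each probe set reads was not analysed here.

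**Figure D2:**
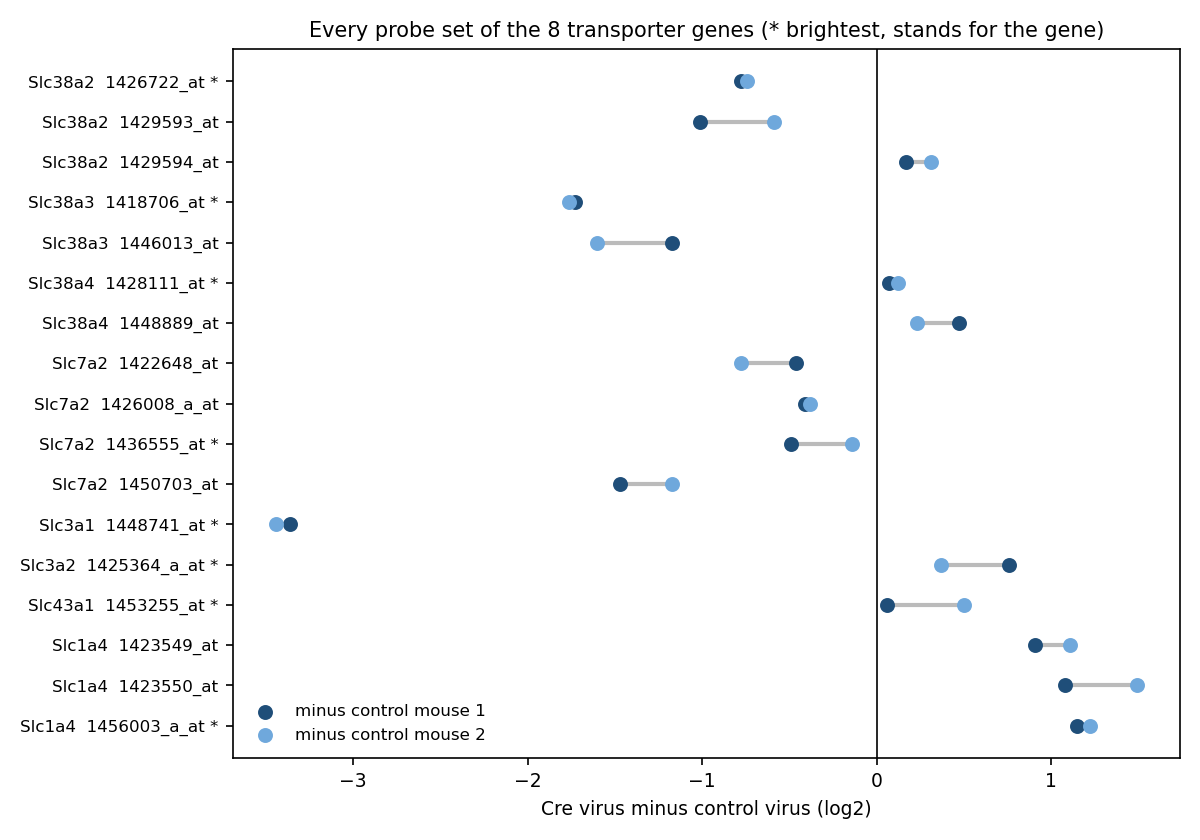
Difference of the Cre liver from control mouse 1 (dark) and control mouse 2 (light) for all 17 probe sets of the 8 genes, in log2 units, with the probe set that stands for each gene starred. Of the 17, 9 have a lower and 8 a higher mean difference, and the Slc38a2 probe sets are the only set of a member that lies on both sides of 0.

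Heavy chains are single-pass proteins that carry a light chain transporter to the cell surface, and of these Slc3a1 fell while Slc3a2 did not pass. Slc3a1 encodes rBAT, the heavy chain of the cystine and dibasic amino acid exchanger of kidney and intestine, and its mutation causes cystinuria. It was at 4.63 in the Cre liver, against 7.98 and 8.07 in the control livers. The control livers lay within 0.08 of each other, and the Cre liver far below both. Slc3a1 was 10.5-fold lower (-3.40 ± 0.15 SE, limma adjusted p = 0.0022), measured by 1 probe set. The 95% interval ran from -3.80 to -3.0, and the control mean was 8.03 ± 0.06 (SD, n = 2). Its Cre value is near the array's median of 4.155, where differences are compressed, so the size is uncertain.

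Slc3a2 encodes 4F2hc (CD98), the heavy chain of most other heterodimeric exchangers. It was at 8.28 in the Cre liver, against 7.52 and 7.91 in the control livers. The Cre value was above both, by 0.37 over the nearer control, about as far as the controls lay apart (0.39). The difference of 0.57 ± 0.21 SE did not pass (limma adjusted p = 0.182; 95% interval -0.01 to 1.14). It rests on 1 probe set of the kind that can read several transcripts.

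Of 8 light chain genes, 7 were bright enough to be fitted, and 0 passed limma's test. At an unadjusted p under 0.05 there was 1 of the 7, against 28.3% of all fitted genes. Slc7a9, the partner of Slc3a1, was at 2.79 in the Cre liver, against 3.57 and 3.41 in the control livers (-0.69 ± 0.18 SE, limma adjusted p = 0.101). These levels straddle the filter value of 3.17, so the gene is dim in every liver. Slc7a13, which also pairs with rBAT in mouse kidney, was at 3.63 in the Cre liver against 4.14 and 3.86 (-0.38).

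Among partners of Slc3a2, Slc7a5 (LAT1) was at 5.46 in the Cre liver, against 5.40 and 5.34 in the control livers (0.08 ± 0.16 SE). Slc7a6, Slc7a10 and Slc7a11 were dim and differed by -0.08, 0.33 and 0.06, and Slc7a8 was below the filter on its only probe set, at 3.19 against 3.19 and 3.07. Slc7a7 was at -0.41 on its brightest probe set and 0.44 on the other. The light chains bright enough to be fitted thus spanned -0.69 to 0.33, without a call in either direction.

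Slc43a1 encodes LAT3, a sodium-independent carrier of branched-chain and other large neutral amino acids. It was at 5.95 in the Cre liver, against 5.90 and 5.45 in the control livers. The Cre value was above both, but by 0.06 over the nearer control, whereas the controls differed by 0.45. The difference of 0.28 ± 0.25 SE did not pass (limma adjusted p = 0.511; 95% interval -0.39 to 0.95).

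Slc1a4 encodes ASCT1, an exchanger of alanine, serine, cysteine and threonine. It was at 5.80 in the Cre liver, against 4.65 and 4.58 in the control livers. The Cre liver lay more than 1 log2 unit above both, and the controls lay close together. Slc1a4 was 2.28-fold higher (1.19 ± 0.17 SE, limma adjusted p = 0.0302). The 95% interval ran from 0.73 to 1.65, and the control mean was 4.61 ± 0.05 (SD, n = 2). The control values are near the array's median, so the size of this rise is uncertain too. Its other probe sets were also above both controls, at 5.47 against 4.38 and 3.97 (1.29 ± 0.25 SE) and at 5.12 against 4.21 and 4.01 (1.01 ± 0.19 SE). Of the 26018 probe sets, 2.39% passed as higher, and neither of these did (limma adjusted p = 0.0738 and 0.0731). The brightest Slc1a4 probe set can read several transcripts, and without it the gene was at 1.29 and did not pass (limma adjusted p = 0.064).

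All 8 members lay outside the range of the controls, 4 below both and 4 above both. Of all fitted genes, 36.0% lay below both controls and 45.9% above both, so lying outside the controls was common. Ranked by difference among 14733 genes, Slc3a1 was number 95 from the lowest, Slc38a3 number 271 and Slc38a2 number 801. Slc7a2 followed at number 2644, and Slc38a4, at number 8033, stood near the middle. From the highest, Slc1a4 was number 410, Slc3a2 number 1970 and Slc43a1 number 4334. Among the 293 fitted genes named Slc, which carry many kinds of solute, Slc3a1 was number 9 and Slc38a3 number 13 from the lowest, and Slc1a4 number 13 from the highest. Of those 293 genes, 29 fell, a larger share than the 4.22% of all fitted genes. Another 15 rose, close to the share of 5.12% over all fitted genes, and the median of the 293 was -0.08.

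**Figure D3:**
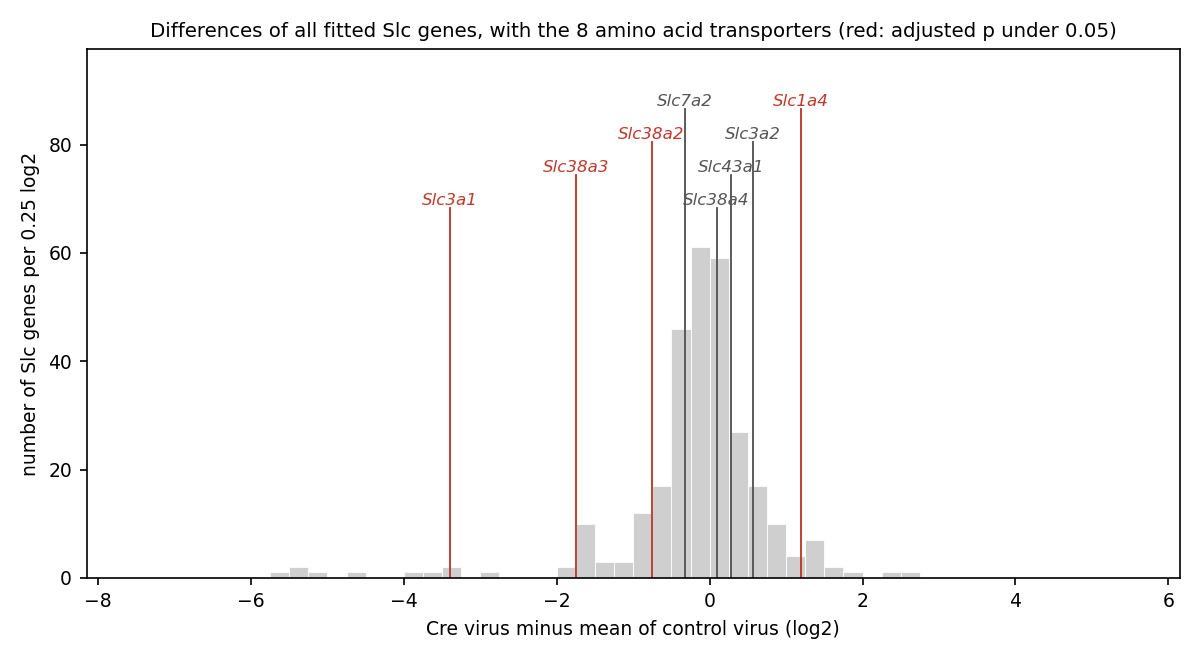
Number of fitted Slc genes (grey bars) per bin of the log2 difference between the Cre liver and the control mean, with lines at the 8 amino acid transporters, red for the 4 that passed limma's test. Slc3a1 at -3.40 and Slc38a3 at -1.75 lie in the lower tail and Slc1a4 at 1.19 in the upper.

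Other amino acid transporters also went both ways. Of 37 listed, 30 were fitted. Of the 30, 2 rose and 1 fell, against 5.12% and 4.22% of all fitted genes, with a median of -0.03. Slc36a4, a carrier of proline and tryptophan of the same family as Slc36a1, was at 7.33 in the Cre liver against 5.39 and 5.61 in the control livers, 3.55-fold higher (1.83 ± 0.18 SE, limma adjusted p = 0.0144). Slc43a2 (LAT4), a relative of Slc43a1, was at 7.20 against 5.84 and 5.90, 2.52-fold higher (1.33 ± 0.15 SE, limma adjusted p = 0.0194). Slc36a1, a proton-coupled exporter of small amino acids from lysosomes, was at 5.10 against 6.85 and 6.77, 3.27-fold lower (-1.71 ± 0.16 SE, limma adjusted p = 0.0122). The rising and falling genes thus included relatives within the SLC36 family.

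Slc16a10 (TAT1), a carrier of aromatic amino acids, was at 8.85 in the Cre liver against 7.93 and 7.48 in the controls (1.15 ± 0.23 SE, limma adjusted p = 0.0595). It missed the threshold here and passed in 4 of 10 other settings. Slc6a13, a carrier of GABA and taurine, was at -0.63 ± 0.13 SE (limma adjusted p = 0.0622) and also passed in 4 of them. The glycine carrier Slc6a9 was at -0.54 ± 0.14 SE and passed in 1, quantile normalization (limma adjusted p = 0.045). The cationic amino acid carrier Slc7a1, of the same family as Slc7a2, was at 0.53 ± 0.20 SE from a dim control mean of 4.0, and at 0.21 with its probe sets averaged. Slc7a4 was at 6.89 in the Cre liver against 6.68 and 5.89 in the controls (0.61 ± 0.37 SE). Its difference was 1.01 without control mouse 1 and 0.21 without control mouse 2, and its probe set 1426069_s_at was at 1.28. Slc7a1 and Slc7a4 passed in none of the 10 settings.

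**Figure D4:**
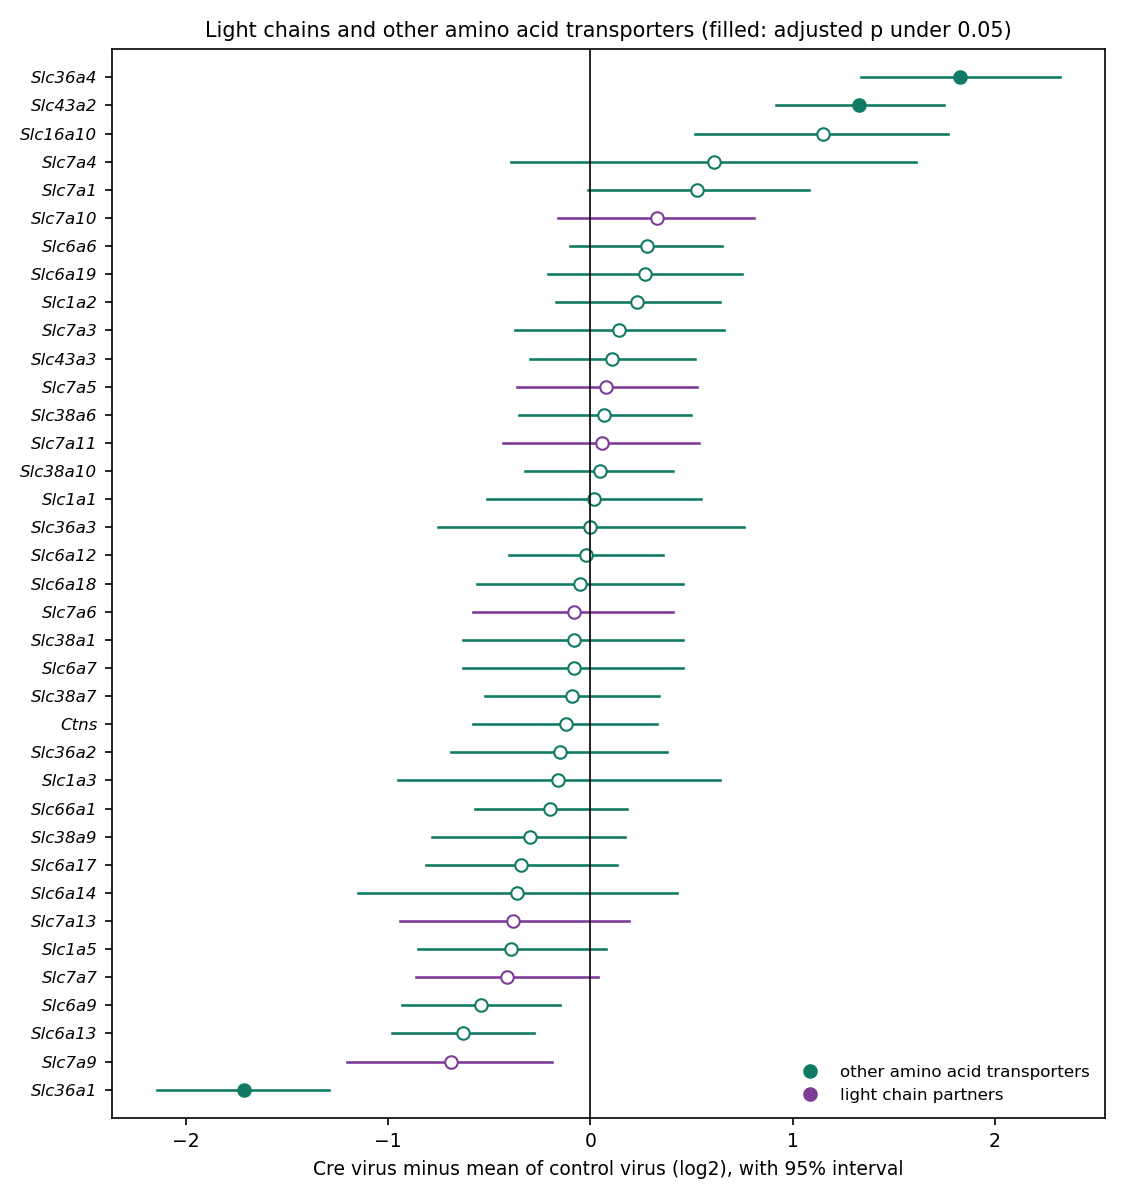
Log2 difference between the Cre liver and the control mean with its 95% interval for 30 other amino acid transporters (green) and 7 light chain genes (purple), filled where limma's adjusted p was under 0.05. Slc36a4 and Slc43a2 are the filled points above 0, and Slc36a1 the one below.

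Genes of the amino acid response, which ATF4 raises when amino acids run short, include several transfer RNA synthetases. Of 32 listed, 30 were fitted, and 1 rose and 1 fell, against 5.12% and 4.22% of all fitted genes, with a median of 0.05. Atf4 itself was at 8.83 in the Cre liver against 9.01 and 9.23 in the controls (-0.29 ± 0.15 SE). Asns, asparagine synthetase, was at 8.15 against 8.53 and 7.92 (-0.07 ± 0.28 SE), and its Cre value lay between the controls. Lars, which charges leucine onto its transfer RNA, rose (1.14 ± 0.13 SE, limma adjusted p = 0.0205). Shmt2, a mitochondrial enzyme of serine and glycine metabolism, fell (-3.36 ± 0.12 SE, limma adjusted p = 0.00159). Its size varied among probe sets, since the other 3 were at -2.57, -2.16 and -0.56 and the mean of all at -2.16.

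The response genes Vldlr and Ddit4 differed by more than Lars, in opposite directions, but did not pass. Vldlr, a lipoprotein receptor, was at 7.36 in the Cre liver against 3.96 and 5.61 in the controls (2.57 ± 0.72 SE, limma adjusted p = 0.11). The Cre value was above both controls, which themselves differed by 1.65, and the difference was 1.74 without control mouse 1 and 3.39 without control mouse 2. Vldlr passed after quantile normalization (limma adjusted p = 0.0361) and without probe sets able to read several transcripts (1.78, limma adjusted p = 0.0287). Ddit4, an inhibitor of mTORC1 signalling, was at 6.77 in the Cre liver against 8.87 and 8.05 (-1.69 ± 0.37 SE, limma adjusted p = 0.072), and it passed in 4 of 10 other settings. Both were more than 1 log2 unit outside both controls.

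Of 12 enzymes that use the transported amino acids, 8 were fitted. Of the 8, 2 fell and 1 rose, against 4.22% and 5.12% of all fitted genes, with a median of -0.13. Hal, which breaks down histidine, a substrate of Slc38a3, was at 8.84 in the Cre liver against 10.72 and 10.73 in the controls (-1.88 ± 0.11 SE, limma adjusted p = 0.00383). Got1, the cytosolic aspartate aminotransferase, was at 9.65 against 11.51 and 11.25 (-1.73 ± 0.15 SE, limma adjusted p = 0.0111). Cth, which makes cysteine, rose to 12.33 in the Cre liver, against 11.60 and 11.71 in the controls (0.68 ± 0.10 SE, limma adjusted p = 0.0361). Its difference stayed at 0.68 but did not pass without the intensity trend (limma adjusted p = 0.0906) or with no filter (limma adjusted p = 0.056). Bcat2, which transaminates branched-chain amino acids, was dim and at -0.27 ± 0.18 SE. Arg1, which cleaves arginine, a substrate of Slc7a2, was at 13.67 against 13.42 and 13.46, and Glul, which makes glutamine, at 12.02 against 11.66 and 11.89; Bcat2, Arg1 and Glul did not pass.

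Markers of hepatocytes and of other cells were read beside these results. Of all fitted genes, 5.12% rose and 4.22% fell. Of 6 fitted hepatocyte markers, 1 rose (Hp, 0.85, though not without the intensity trend, limma adjusted p = 0.0569) and none fell, and Alb was at 14.62 in the Cre liver against 14.75 and 14.72 in the controls. Of 7 fitted genes of dividing cells, 5 rose. The mean log2 level of the 7 was 6.72 in the Cre liver against 4.71 and 4.63. Top2a and Pcna did not pass, at 0.43 and -0.04. Birc5, 1 of the 5, had a control mean of 3.04, under the filter value of 3.17. It was fitted only because of its Cre value of 6.37, so the filter favoured its rise. The mean level of 7 Kupffer cell markers was 7.31 in the Cre liver against 6.38 and 6.79, and 1 rose (Marco, 1.88, or 0.77 with its probe sets averaged). It was 6.98 against 6.65 and 6.70 for 7 endothelial markers, and 7.33 against 7.07 and 7.15 for 7 stellate cell markers. Of these 14, 0 passed limma's adjusted test, and 3 had an unadjusted p under 0.05. The mean of 4 cholangiocyte markers was 4.53 in the Cre liver against 3.80 and 4.01. Of these, Sox9 was at 6.69 in the Cre liver against 3.87 and 4.82, 5.09-fold higher (2.35 ± 0.43 SE), and missed the threshold (limma adjusted p = 0.0513). It passed in 6 of 10 other settings and was at 1.29 with its probe sets averaged, while the differences of Krt19, Krt7 and Epcam lay between -0.16 and 0.28. Means were 4.65 against 4.63 and 4.66 for 4 lymphocyte markers, and 3.64 against 3.89 and 3.65 for 3 neutrophil markers. Of these 11, 0 passed the adjusted test, and 2 had an unadjusted p under 0.05. Both shares at the unadjusted p are below the 28.3% of all fitted genes. The only erythroid marker fitted, Alas2, fell (-3.27). Cftr, S100a8 and Hba-a1 were below the filter. The part of these shifts in the transporters' differences was not tested.

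Array controls for RNA quality also differed a little between the livers. The Gapdh 3′ probe set exceeded its 5′ probe set by 1.04 in the Cre liver, against 0.45 and 0.82 in the control livers, and that of beta-actin by 2.39, against 1.71 and 2.06. The Cre liver thus had the largest gap of the 3 for both genes, and the part of this in the transporters' differences was not tested. The Y-linked gene Eif2s3y was at 8.07 in the Cre liver against 7.70 and 7.75, and Uty at 5.89 against 5.37 and 5.14. Xist was dim in all 3, at 3.17 against 3.36 and 3.59. The Cre value lay outside both controls for each of these. Kdm5d, also Y-linked, was at 6.15 in the Cre liver, between the controls at 6.03 and 6.34. These Y-linked genes were thus above the filter value of 3.17 in all 3 livers and Xist at or near it, as in male mice. No sex marker passed limma's adjusted test. At an unadjusted p under 0.05 there was 1 of 4 fitted, against 28.3% of all fitted genes.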

How the data were processed

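RMA in Partek 6.5 gave the deposited log2 expression of each probe set, per the submitters' processing notes; it corrects background, equalises the arrays' distributions and summarises probes. The sources used here state no log base, and base 2 rests on the range of the values, which end at 15.048 on every array. The titles give the controls as biological replicates.

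Of 45101 probe sets, 34945 listed 1 gene in the platform annotation. The brightest by mean over the arrays stood for a gene, and genes at or above the 30th percentile of all probe sets (3.17) were fitted with limma 3.58.1 in R 4.3.3 (lmFit, eBayes with intensity trend). The controls gave 1 residual degree of freedom and moderation 3.19 prior ones. Single probe sets were tested over 26018. The fit was tested on simulated data.

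The members, lists and rules were chosen with earlier results of these data known. Named by rule were Hnf4a, the members, all light chains, and the 8 other transporters and up to 4 genes of each further list with the largest absolute difference; Atf4, Asns, Arg1 and Glul were named after their values were seen. Alternatives were other moderation, filters, normalization, probe set choices and thresholds, and each control left out. The number of arrays limits the precision.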

Additional observations from a re-analysis of the deposited data

How the results depend on the processing

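Slc3a1 and Slc38a3 passed limma's test in all 10 other settings that give a test, with differences from -3.43 to -3.39 and from -1.78 to -1.56. Slc38a2 passed in 8 (-0.76 to -0.44), Slc1a4 in 9 (1.10 to 1.29) and Slc7a2 in 1. The count of members that rose was 0 without probe sets that can read several transcripts and 0 at an adjusted p threshold of 0.01, against 1. The count that fell was 2 without the intensity trend and 2 at a threshold of 0.01, against 3. It stayed at 3 with probe sets averaged, but Slc38a2 then dropped out and Slc7a2 came in. The members' median difference of -0.11 was -0.32 without probe sets that can read several transcripts. Slc3a2 (0.57) has no other probe set and is missing from that median. With either control left out, the median ran from -0.22 to -0.01.

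Over all genes, 754 rose and 622 fell. The number that rose was 446 with no filter, 1216 after median centring, 1214 after quantile normalization, 478 without probe sets able to read several transcripts, and 79 and 1656 at thresholds of 0.01 and 0.1. The number that fell was 999 after quantile normalization, and 233 and 971 at those thresholds. The cause was not tested, except that thresholds and filters change the counts by construction. A filter on the 30th percentile of the probe sets that stand for genes was added after seeing the data. Leaving out a control leaves 1 array against 1, so only differences could be given. No difference of a named gene changed sign with a change of call. No paired analysis was possible because the Cre virus group holds 1 array.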

Other observations

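Probe sets of 1 gene disagreed in direction or only in call for some transporters outside the 8. Slc7a7, the light chain of a cationic and neutral amino acid exchanger, was at 4.85 in the Cre liver against 5.24 and 5.27 in the control livers on probe set 1447181_s_at, and at 4.47 against 3.90 and 4.16 on 1417392_a_at. Neither passed limma's test (limma adjusted p = 0.237 and 0.281 over all probe sets), and the Cre liver lay below both controls on the first and above both on the second.

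For Slc16a10 all 4 probe sets were higher in the Cre liver than in both controls. Probe set 1434592_at, at 8.86 in the Cre liver against 7.72 and 7.55, passed over all probe sets (1.23 ± 0.15 SE, limma adjusted p = 0.0349), while 1436368_at, which was brighter and stood for the gene, did not (limma adjusted p = 0.0828). The glycine carrier Slc6a9 was at -0.54 on 1417636_at and at 0.05 on 1431812_a_at.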
